A study of Mus musculus with 18 samples.

Results

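The genes described here carry out or regulate hedgehog signaling at the primary cilium, and they are Rab34, Kif7, Ift88, Arl13b, Evc, Evc2, Gpr161 and Tulp3. A gene was taken where the probe-gene table gave its symbol to a probe set, and its probe set with the highest mean over the 18 arrays was used. Of the 8 genes 7 had such a probe set, of 22180 genes on the arrays, and all 7 passed the filter on dim genes that left 16011 genes tested. No probe set carried the name or gene ID of Arl13b in the table used, so that gene was not analysed here.

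The mouse samples were cells sorted by flow cytometry from digested tissue, with 1 array per sample. Tumors came from mice of genotype aP2-Cre/+;tdTomato/+/;SmoM2/+ on the strain BJ;SJL;B6.129 and gave Tomato-positive/Pecam1-positive (Tom+/Pecam1+), Tomato-positive/Pecam1-negative (Tom+/Pecam1-) and Tomato-negative/Pecam1-negative (Tom-/Pecam1-) cells, n = 4 arrays each, with repeats 1 to 3 at postnatal day 48 and repeat 4 at day 38. Normal sternocleidomastoid muscle, a neck muscle, came from aP2-Cre/+;tdTomato/+ mice of strain B6;SJL at day 21 and gave Tomato-positive (Tom+) and Tomato-negative (Tom-) cells, n = 3 arrays each. The label of the Tom+ repeat 1 writes the reporter without its wild-type allele. All groups thus shared the Cre transgene, expressed from the promoter of Fabp4 (also called aP2), and a red reporter switched on for good in any cell, and its progeny, in which the Cre has acted. SmoM2, an active form of the hedgehog transducer Smoothened, was in the tumor genotype, so tissue, genotype, strain and age cannot be told apart between tumor and muscle. The labels call the arrays biological repeats and do not say whether animals were pooled.

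The primary cilium is a single antenna-like protrusion built on the mother centriole, and in vertebrates most hedgehog signaling passes through it. Without ligand the receptor Ptch1 keeps Smoothened out of the cilium, and Gli factors are processed there into repressors. When Smoothened enters the cilium, Gli proteins reach the cilium tip and become activators. Loss of the cilium can therefore remove both Gli activator and Gli repressor, and hedgehog-driven tumors with an active Smoothened are known to depend on it. Rab34 is a small GTPase that acts in the formation of the ciliary vesicle at the mother centriole. Ift88 is a core subunit of the intraflagellar transport B (IFT-B) particle that carries cargo along the cilium. Evc and Evc2 are membrane proteins that form a complex near the cilium base, bind Smoothened and pass its signal on. Kif7 is a kinesin of the cilium tip that organises the Gli proteins there. Gpr161 is a ciliary receptor that holds the pathway down through cAMP and protein kinase A, and Tulp3 is the adaptor that brings Gpr161 and other receptors into the cilium.

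Evc and Evc2 lie head to head on chromosome 5, and their promoter windows are shown beside that of Rab34. In all 3 genes the means of tumor Tom+/Pecam1+ and muscle Tom+ cells were the lowest, as described below. The same groups were lowest for Gpr161 and Tulp3, whose group means spanned less (0.72 and 0.63) and whose windows are not shown. Ift88 is shown beside them as the gene with the smallest range. All sequences are RefSeq windows of GRCm38.p6 that run from 250 bases before to 50 bases after the gene's start, and all 8 genes had at least 1 window. Capitals mark an RFX half-site (GTTGCC, a motif of the RFX factors that regulate ciliary genes) or a GC box (GGGCGG, a motif of Sp factors) on either strand. The start sites of Evc and Evc2 were 1597 bases apart.
Rab34, the downstream of its start sites (chr11:78188498-78188797, + strand): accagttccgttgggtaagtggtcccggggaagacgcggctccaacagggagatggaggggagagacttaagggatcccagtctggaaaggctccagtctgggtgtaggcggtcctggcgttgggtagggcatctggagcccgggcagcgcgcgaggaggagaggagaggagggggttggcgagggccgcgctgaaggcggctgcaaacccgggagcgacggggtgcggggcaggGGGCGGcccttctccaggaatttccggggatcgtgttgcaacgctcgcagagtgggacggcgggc
Evc (chr5:37336832-37337131, - strand): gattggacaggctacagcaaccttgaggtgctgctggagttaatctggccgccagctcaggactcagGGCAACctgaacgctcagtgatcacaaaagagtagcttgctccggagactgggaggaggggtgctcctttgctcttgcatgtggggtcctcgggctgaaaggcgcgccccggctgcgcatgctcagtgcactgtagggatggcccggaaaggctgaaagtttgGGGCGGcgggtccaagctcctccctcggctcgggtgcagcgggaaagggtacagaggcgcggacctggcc
Evc2 (chr5:37338228-37338527, + strand): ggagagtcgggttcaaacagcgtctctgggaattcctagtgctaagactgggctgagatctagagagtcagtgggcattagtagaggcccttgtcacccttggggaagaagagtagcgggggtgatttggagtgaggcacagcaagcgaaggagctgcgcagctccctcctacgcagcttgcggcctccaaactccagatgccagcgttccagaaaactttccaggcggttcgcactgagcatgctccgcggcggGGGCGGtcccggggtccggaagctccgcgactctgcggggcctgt
Ift88 (chr14:57423821-57424120, + strand): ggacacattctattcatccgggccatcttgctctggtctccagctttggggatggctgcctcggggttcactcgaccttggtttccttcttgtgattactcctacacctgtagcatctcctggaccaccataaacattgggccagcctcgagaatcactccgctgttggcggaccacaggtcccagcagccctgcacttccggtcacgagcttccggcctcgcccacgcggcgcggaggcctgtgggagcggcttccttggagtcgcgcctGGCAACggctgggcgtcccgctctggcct
The Rab34 window held a GC box with its first base at position -15 from the start site, and the Evc2 window held one at position 6. The Evc window held a GC box at position -20 and an RFX half-site at position -183. The Ift88 window held an RFX half-site at position 22 and no GC box. The upstream Rab34 window (chr11:78188177-78188476) held neither motif. Of the genes not shown, Kif7 had 5 GC boxes, Tulp3 and Arl13b had 3 each, and Gpr161 had 0 in each of its windows. Arl13b had 1 RFX half-site, and Kif7, Tulp3 and Gpr161 had 0. Among all 32851 windows of the table, 12.5% held the RFX half-site and 35.7% the GC box. A GLI site (GACCACCCA, either strand), present in 0.253% of all windows, was in none of the 8 genes' windows, and neither was an X-box (the full RFX motif), present in 1.53%. These matches describe letters, and the windows without one say nothing about the factors.

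Levels are given as the deposited log2 intensity minus the median of the same array, so that 0 is the array median, and a gene's level is compared with that of the same gene only. The centring was needed because tumor array medians exceeded muscle array medians by 0.34 on the deposited log2 scale, and directions between tissues that turn without it are named. The 40th percentile of the arrays lay between -0.62 and -0.54. The endothelial list (8 genes such as Pecam1, Cdh5 and Kdr) averaged 5.14 to 5.86 in tumor Tom+/Pecam1+ and 5.45 to 5.63 in muscle Tom+ arrays. It averaged 0.70 to 1.05 in tumor Tom+/Pecam1-, 0.49 to 1.28 in tumor Tom-/Pecam1- and 1.81 to 2.17 in muscle Tom- arrays. Muscle Tom+ cells, which were not sorted on Pecam1, thus had the endothelial marker levels of the Pecam1+ tumor sort. Of 11 measured genes of motile cilia, 2 to 4 were above the 40th percentile on all arrays of a group, and the list averaged -0.89 to -0.58 per array. Foxj1, the main transcription factor of motile cilia, averaged between -1.16 and -0.88 in the 5 groups.

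**Figure D1:**
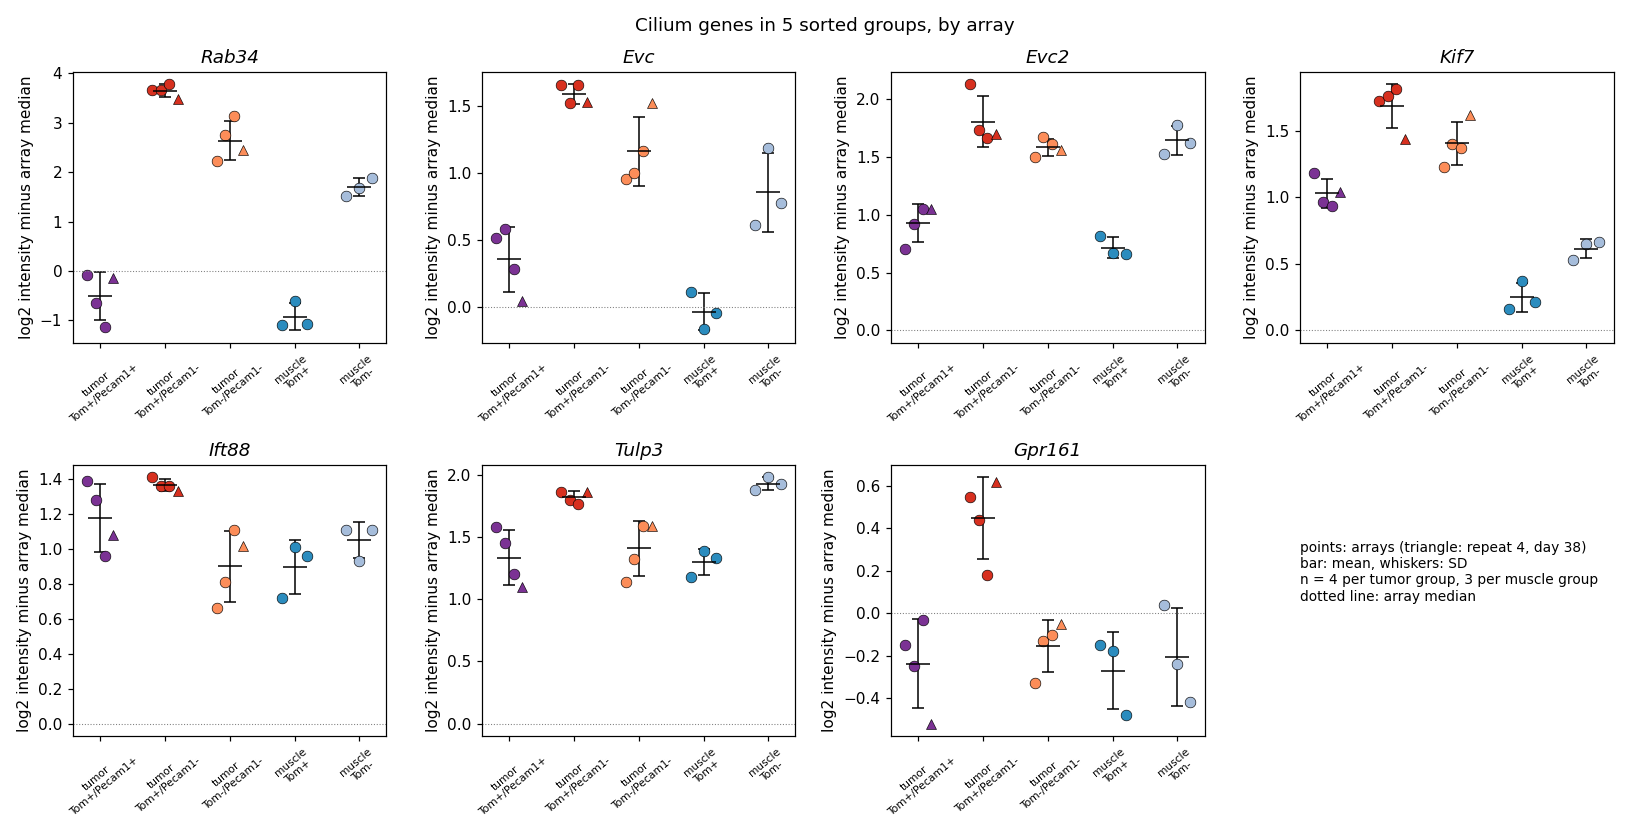
Level of each of the 7 measured genes (y axis, log2 intensity minus array median, with a different range in each panel) in the 5 sorted groups (x axis). Points are arrays, bars are means and whiskers SD, with n = 4 per tumor group and 3 per muscle group. Rab34 separates the 3 high groups (1.52 to 3.78) from the Tom+/Pecam1+ tumor and Tom+ muscle arrays (-1.13 to -0.09). Ift88 groups that are neighbours in the order of means overlap. Its Tom+/Pecam1- tumor arrays still lie above all Tom-/Pecam1- tumor, muscle Tom+ and muscle Tom- arrays.

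Rab34 varied more between the groups than any of the other measured genes. In tumor Tom+/Pecam1+ cells Rab34 was at -0.09, -0.65, -1.13 and -0.15, and in tumor Tom+/Pecam1- cells at 3.67, 3.67, 3.78 and 3.48. In tumor Tom-/Pecam1- cells Rab34 was at 2.22, 2.76, 3.13 and 2.44. In muscle Tom+ cells Rab34 was at -1.10, -0.61 and -1.07, and in muscle Tom- cells at 1.52, 1.68 and 1.88. The Tom+/Pecam1- tumor arrays were all above every other array, and the Tom+/Pecam1+ tumor and Tom+ muscle arrays overlapped at the low end. Rab34 lay below the 40th percentile on 2 of 4 tumor Tom+/Pecam1+ and 3 of 3 muscle Tom+ arrays, so the low level there is near the dim end of the array and differences from it are compressed. The group means of Rab34 spanned 4.58 log2 units, a 23.9-fold range, and 99.1% of tested genes had a smaller span.

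Evc had the same order of group means over a narrower range, as did the dimmer Gpr161 described below. Evc2 had its top and its lowest groups in common with Rab34 but muscle Tom- cells (1.64) just above tumor Tom-/Pecam1- cells (1.59). Evc was at 0.51, 0.58, 0.28 and 0.04 in tumor Tom+/Pecam1+ cells, at 1.65, 1.52, 1.65 and 1.53 in Tom+/Pecam1- cells and at 0.95, 1.00, 1.16 and 1.52 in Tom-/Pecam1- cells. Evc was at 0.11, -0.17 and -0.05 in muscle Tom+ cells and at 0.61, 1.18 and 0.77 in muscle Tom- cells. For Evc the Tom-/Pecam1- tumor arrays overlapped both the Tom+/Pecam1- tumor arrays and the Tom- muscle arrays, and the endothelial marker-rich groups lay apart below them. Evc2 was at 0.70, 0.92, 1.05 and 1.05 in tumor Tom+/Pecam1+ cells, at 2.13, 1.73, 1.66 and 1.70 in Tom+/Pecam1- cells and at 1.50, 1.67, 1.61 and 1.56 in Tom-/Pecam1- cells. Evc2 was at 0.82, 0.67 and 0.66 in muscle Tom+ cells and at 1.53, 1.78 and 1.62 in muscle Tom- cells. The upper 3 groups of Evc2 overlapped one another, as did the lower pair, and every array of the upper groups was above every array of the lower pair. The spans were 1.62 for Evc and 1.09 for Evc2, against a median span of 0.72 over all tested genes.

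Kif7 had a different order, with all 3 tumor groups above both muscle groups. Kif7 was at 1.18, 0.96, 0.93 and 1.04 in tumor Tom+/Pecam1+ cells, at 1.72, 1.76, 1.81 and 1.44 in Tom+/Pecam1- cells and at 1.23, 1.40, 1.37 and 1.62 in Tom-/Pecam1- cells. Kif7 was at 0.16, 0.37 and 0.21 in muscle Tom+ cells and at 0.53, 0.65 and 0.66 in muscle Tom- cells. The Pecam1-negative tumor groups overlapped each other, and every other pair of neighbours in this order lay apart. Kif7 has another probe set, and it kept the Tom+/Pecam1- tumor cells highest but not the gap between tissues. That probe set averaged 0.20 ± 0.07 in tumor Tom+/Pecam1+, 0.60 ± 0.17 in Tom+/Pecam1- and 0.22 ± 0.22 in Tom-/Pecam1- cells (SD, n = 4 each). It averaged 0.02 ± 0.19 in muscle Tom+ and 0.16 ± 0.06 in muscle Tom- cells (SD, n = 3 each). The tumor rise of Kif7 over muscle is therefore carried by 1 of its 2 probe sets in the comparisons of Tom+/Pecam1+ and Tom-/Pecam1- cells below.

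**Figure D2:**
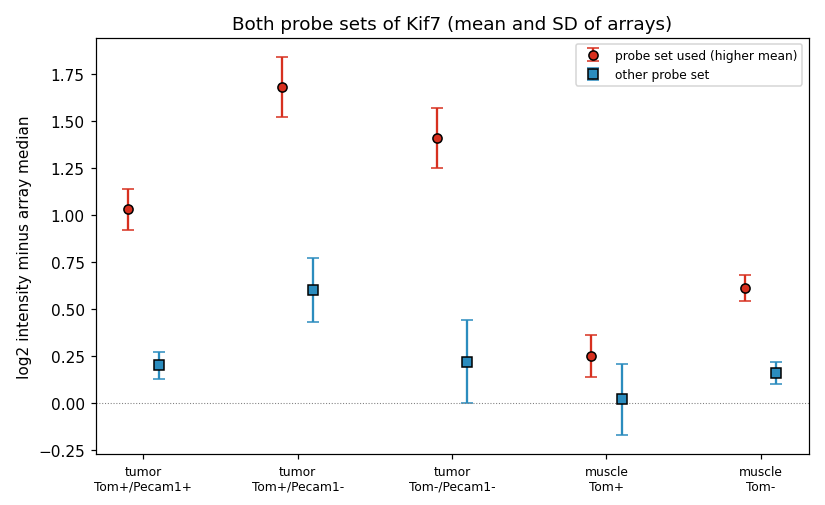
Mean level of both Kif7 probe sets (y axis, log2 intensity minus array median) in the 5 sorted groups (x axis), with SD as whiskers (n = 4 per tumor and 3 per muscle group). The probe set used puts the Tom-/Pecam1- tumor cells at 1.41 against 0.61 in muscle Tom- cells, and the other puts them at 0.22 against 0.16.

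Ift88, Tulp3 and Gpr161 varied least. Ift88 lay between 0.66 and 1.41 on all 18 arrays, its group means spanned 0.47, and each pair of neighbouring groups overlapped. Tulp3 averaged 1.33 ± 0.22 in tumor Tom+/Pecam1+, 1.82 ± 0.05 in Tom+/Pecam1- and 1.41 ± 0.22 in Tom-/Pecam1- cells (SD, n = 4 each). Tulp3 averaged 1.30 ± 0.11 in muscle Tom+ and 1.93 ± 0.05 in muscle Tom- cells (SD, n = 3 each). Tulp3 was thus the one measured gene with its highest group mean in muscle, an order that turns on uncentred values, where tumor Tom+/Pecam1- cells were higher than muscle Tom- cells by 0.23. Gpr161 was dim, above the array median on 5 of 18 arrays. These were the 4 tumor Tom+/Pecam1- arrays, at 0.55, 0.44, 0.18 and 0.62, and 1 muscle Tom- array at 0.04.

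The first comparison asked how Tom+/Pecam1- tumor cells, the marked cells outside the Pecam1 gate, differ from unmarked Pecam1- tumor cells. In limma's moderated test over all 16011 genes, with Benjamini-Hochberg adjustment, 5 of 7 genes rose and 0 fell, where 25% of all tested genes were called in either direction and 13.2% rose. Rab34 rose 2.02-fold (log2 difference 1.01 ± 0.21 SE, adjusted p = 0.00219) and was higher in 4 of 4 repeats, by 1.45, 0.91, 0.65 and 1.04. The receptor Gpr161 rose by 0.60 (adjusted p = 0.00266), Ift88 by 0.47 (adjusted p = 0.00536), Tulp3 by 0.41 (adjusted p = 0.0136) and Evc by 0.43 (adjusted p = 0.0404). The restraining genes Gpr161 and Tulp3 therefore rose along with Rab34, which acts in cilium formation. Kif7 differed by 0.28 (95% confidence interval 0.06 to 0.49, adjusted p = 0.054) and Evc2 by 0.22 (interval -0.01 to 0.45, adjusted p = 0.162).

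With the repeat number as a block 3 of these 5 calls held, and the adjusted p was 0.063 for Tulp3 and 0.122 for Evc. The share of all tested genes called with the block is not given here or below, so counts with the block have no background beside them. The tumor p-values without the block tend to be too small, because the deposited tumor values had been adjusted so that each tumor repeat has the same average over its 3 sorted populations. Evc lost its call on leaving out any array of these groups except the Tom-/Pecam1- repeat 4 (adjusted p 0.0598 to 0.131), and Tulp3 lost it without the Tom-/Pecam1- repeat 1 (adjusted p = 0.0601). The Kif7 call turned on the processing and on repeat 4, the only repeat of day 38. Kif7 passed with array weights (0.34, adjusted p = 0.00287) and as the mean of its probe sets (0.33, adjusted p = 0.0147). It also passed with a 60th percentile filter (0.28, adjusted p = 0.0485), but not with the block (adjusted p = 0.153). The Kif7 difference was 0.49, 0.36 and 0.44 in the repeats of day 48 and -0.18 in repeat 4. Without that repeat in all tumor groups it was 0.43 (adjusted p = 0.00488). Leaving out only the Tom+/Pecam1- or the Tom-/Pecam1- array of repeat 4 gave an adjusted p of 0.0162 or 0.0202. Evc differed by 0.01 in repeat 4, against 0.49 to 0.70 in the others. The other Kif7 probe set gave 0.38 (adjusted p = 0.0213).

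The cell content of these sorts moved as well. The leukocyte list averaged 2.19 to 2.60 per array in Tom+/Pecam1- cells and 3.86 to 4.71 in Tom-/Pecam1- cells, and 6 of 6 genes fell. The tenocyte list averaged 0.82 to 1.67 and 3.13 to 3.57 in these groups, with 5 of 6 genes lower and Mkx and Kera not above the 40th percentile on every Tom+/Pecam1- array. The muscle progenitor list averaged 3.35 to 3.85 and 1.50 to 2.77, with 6 of 6 genes higher. Of 5 Schwann genes 3 fell and 1 rose (0.37 to 0.76 and 1.14 to 1.25). Their part in the differences of the cilium genes was not tested. In such bulk sorted samples, fewer cells of a type and less RNA per cell cannot be told apart.

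In muscle, Tom+ cells differed from Tom- cells in the other direction. Of the 7 genes 0 rose and 5 fell, where 39.4% of all tested genes were called and 19.8% fell. Rab34 was 6.16-fold lower in Tom+ cells (log2 difference -2.62 ± 0.25 SE, adjusted p = 1.58e-07), and by repeat the difference was -2.62, -2.29 and -2.95. Evc2 fell by 0.93 (adjusted p = 1.14e-05), Evc by 0.89 (adjusted p = 0.000384) and Tulp3 by 0.63 (adjusted p = 0.000887), each lower in 3 of 3 repeats. Kif7 fell by 0.37 (adjusted p = 0.018). Ift88 differed by -0.15 (95% confidence interval -0.43 to 0.12) and Gpr161 by -0.06 (interval -0.38 to 0.26), with adjusted p of 0.383 and 0.787.

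The Kif7 call in muscle was weak. With the replicate block its adjusted p was 0.0665, and it was 0.063, 0.0532 and 0.0553 without the Tom+ repeat 1, the Tom+ repeat 3 or the Tom- repeat 3, while the other probe set gave -0.14 (adjusted p = 0.429). The endothelial list had 8 of 8 genes higher in muscle Tom+ cells. The fibroblast list averaged 0.33 to 0.77 in Tom+ and 5.36 to 5.48 in Tom- arrays, with 6 of 6 genes lower and Lum not above the 40th percentile on every Tom+ array. The muscle progenitor list averaged 0.09 to 0.53 and 3.49 to 3.81, with 6 of 6 lower and Megf10 likewise dim. Of 9 measured proliferation genes 7 fell, and the list averaged 0.97 to 1.98 in Tom+ and 2.59 to 3.18 in Tom- arrays. The tenocyte list (-0.77 to -0.48 and 2.57 to 3.58) had 6 of 6 genes lower, the Schwann list (-0.22 to 0.07 and 1.84 to 1.99) 5 of 5, and the mural (2.51 to 3.80 and 5.06 to 5.20) and leukocyte lists (0.54 to 1.18 and 2.31 to 2.45) 5 of 6 each. Their part in the lower cilium genes was not tested.

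**Figure D3:**
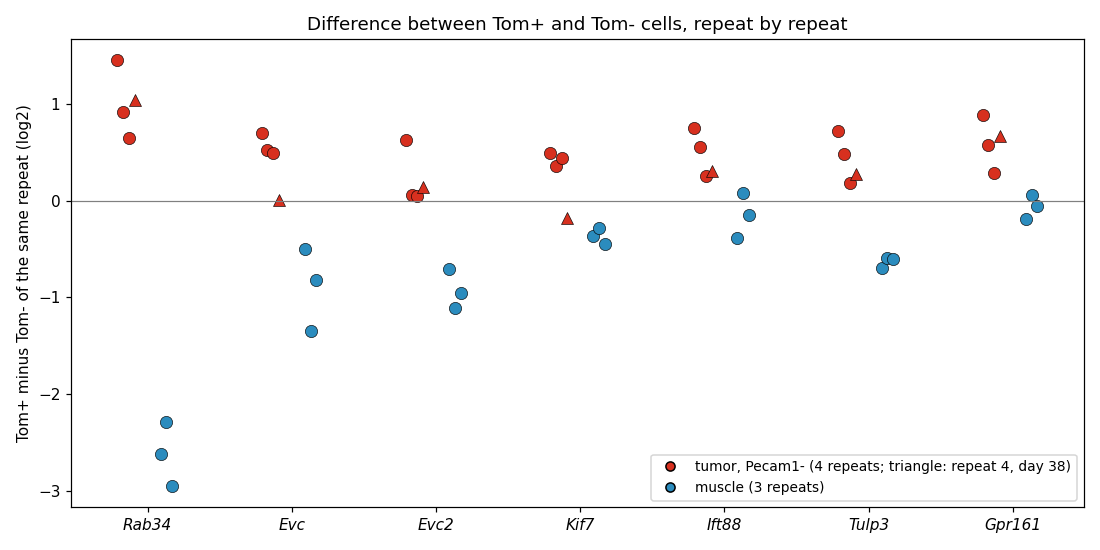
Difference between Tom+ and Tom- cells of the same repeat number (y axis, log2 units) for each of the 7 measured genes (x axis), in Pecam1- tumor cells (4 repeats) and muscle (3 repeats). Rab34 lies between 0.65 and 1.45 in tumor and between -2.95 and -2.29 in muscle, and Kif7 in the day 38 tumor (triangle) is below 0.

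The difference between the marks of the tissues was tested directly, as the Tom+ minus Tom- difference in Pecam1- tumor cells minus that in muscle. For all 7 genes the signed difference was higher in tumor, where 39% of tested genes were called and 20.5% in that direction. In size the difference was larger in muscle for Rab34 (-2.62 against 1.01 in tumor), Evc (-0.89 against 0.43) and Evc2 (-0.93 against 0.22). So it was for Tulp3 (-0.63 against 0.41) and Kif7 (-0.37 against 0.28). It was larger in tumor for Gpr161 (0.60 against -0.06 in muscle) and Ift88 (0.47 against -0.15). The excess was 3.64 ± 0.33 (SE) log2 units for Rab34 (adjusted p = 1.44e-07). It was 1.31 for Evc (adjusted p = 0.000151), 1.15 for Evc2 (adjusted p = 3.04e-05) and 1.05 for Tulp3 (adjusted p = 0.00013). The smaller values were 0.66 for Gpr161 (adjusted p = 0.0141), 0.65 for Kif7 (adjusted p = 0.00296) and 0.62 for Ift88 (adjusted p = 0.00811). All 7 passed with the block too and on leaving out each array in turn. Ift88 (0.62) and Gpr161 (0.66) lost their calls without muscle repeats 1 and 2, a fit with 1 array in each muscle group. This test uses the same arrays as both comparisons above, and the muscle Tom+ cells it draws on are the endothelial marker-rich ones.

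Within the Tom+ cells of the tumors, Pecam1+ cells had less of nearly all measured genes than Pecam1- cells. Of the 7 genes 0 rose and 6 fell, where 44.1% of tested genes were called and 24% fell, and the block left the 6 calls. Rab34 was 17.9-fold lower (log2 difference -4.16 ± 0.21 SE, adjusted p = 5.03e-11), with differences of -4.91 to -3.63 in the 4 repeats. Evc fell by 1.23 (adjusted p = 1.92e-06), Evc2 by 0.88 (adjusted p = 3.43e-06) and Gpr161 by 0.69 (adjusted p = 0.000343). Kif7 fell by 0.66 (adjusted p = 3.99e-05) and Tulp3 by 0.49 (adjusted p = 0.00213). Ift88 differed by -0.19 (95% confidence interval -0.43 to 0.05, adjusted p = 0.19). The fibroblast list fell with them, at 1.08 to 1.54 in Pecam1+ and 4.64 to 5.34 in Pecam1- arrays, with 6 of 6 genes lower and Lum dim, as did the muscle progenitor list (0.03 to 0.90 and 3.35 to 3.85, 6 of 6 lower). The mural list (2.15 to 2.62 and 4.34 to 4.69) had 6 of 6 genes lower, the leukocyte list (0.34 to 1.29 and 2.19 to 2.60) 4 of 6 and the tenocyte list (-0.68 to -0.08 and 0.82 to 1.67) 5 of 6, while 8 of 8 endothelial genes rose. Their part was not tested.

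**Figure D4:**
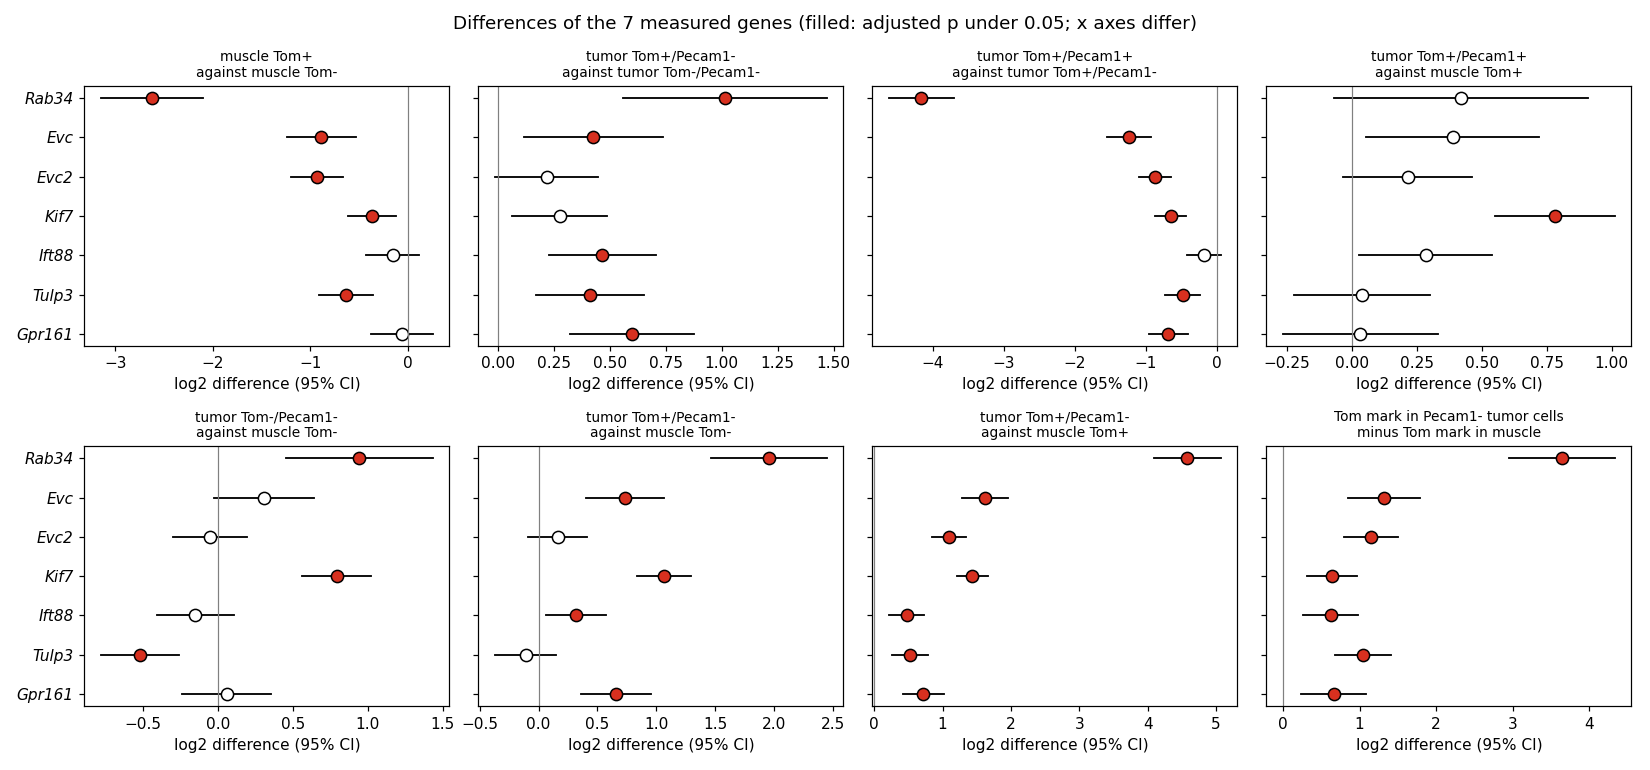
Log2 differences (x axis, a different range in each panel) of the 7 measured genes in the 7 comparisons and in the difference of marks, with 95% confidence intervals. Filled points have an adjusted p under 0.05. The difference of marks lies above 0 for all 7 genes, from 0.62 for Ift88 to 3.64 for Rab34.

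Between the tissues, the fewest of the 7 genes passed in the endothelial marker-rich groups. In this and the following comparisons of tumor with muscle the p-values tend to be too small, with or without the random block. The adjustment of the deposited tumor values removed spread between tumor repeats that neither fit restores. In tumor Tom+/Pecam1+ against muscle Tom+ cells only Kif7 passed the test, at 0.78 (adjusted p = 4.45e-05), where 34.2% of tested genes were called, 15.7% as higher and 18.5% as lower. Rab34 differed by 0.42 (95% confidence interval -0.07 to 0.91, adjusted p = 0.176) and Evc by 0.39 (interval 0.05 to 0.72, adjusted p = 0.0677). The other probe set of Kif7 gave 0.18 (adjusted p = 0.279). Evc passed with the repeat number as a random block (adjusted p = 0.0371), a value under the same limit. It also passed without the Tom+/Pecam1+ repeat 4 (0.49, adjusted p = 0.0248). Rab34 (0.63, adjusted p = 0.033) and Ift88 (0.35, adjusted p = 0.0409) passed without the Tom+/Pecam1+ repeat 3, and on uncentred values 7 of 7 genes passed as higher in tumor. The fibroblast list was at 1.08 to 1.54 in tumor Tom+/Pecam1+ against 0.33 to 0.77 in muscle Tom+ arrays (3 of 6 genes higher), and the mural list at 2.15 to 2.62 against 2.51 to 3.80 (4 of 6 lower). Their part was not tested.

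In unmarked cells, tumor Tom-/Pecam1- against muscle Tom-, 2 of 7 genes rose and 1 fell, where 48.7% of tested genes were called, 23.8% as higher and 24.9% as lower. Rab34 rose by 0.94 (adjusted p = 0.00302) and Kif7 by 0.79 (adjusted p = 1.8e-05), but the other Kif7 probe set gave 0.05 (adjusted p = 0.741). Tulp3 fell by 0.52 (adjusted p = 0.00229), and on uncentred values its difference was -0.18 (adjusted p = 0.199). Evc differed by 0.31 (adjusted p = 0.119), and by 0.47 without the muscle Tom- repeat 2 (adjusted p = 0.0294). On uncentred values Evc (0.64, adjusted p = 0.0023) and Gpr161 (0.39, adjusted p = 0.027) passed as higher in tumor. The leukocyte list was higher in these tumor cells, at 3.86 to 4.71 against 2.31 to 2.45 in muscle Tom- cells, with 6 of 6 genes higher. The muscle progenitor list was at 1.50 to 2.77 against 3.49 to 3.81 (5 of 6 lower), the endothelial list at 0.49 to 1.28 against 1.81 to 2.17 (6 of 8 lower) and the Schwann list at 1.14 to 1.25 against 1.84 to 1.99 (4 of 5 lower). The proliferation list was at 2.01 to 2.25 against 2.59 to 3.18 (5 of 9 lower), and 3 of 6 mural genes were lower. Their part was not tested.

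Tumor Tom+/Pecam1- cells were set against each muscle population, and both comparisons share the same tumor arrays. Against muscle Tom- cells 5 of 7 genes rose and 0 fell, where 47.1% of tested genes were called, 24.1% as higher and 23% as lower. Rab34 was 3.88-fold higher (1.96, adjusted p = 3.43e-06), Kif7 2.10-fold higher (1.07, adjusted p = 6.6e-07) and Evc 1.66-fold higher (0.73, adjusted p = 0.00112). Gpr161 rose by 0.66 (adjusted p = 0.00111), and Ift88 by 0.32 (adjusted p = 0.0414), a call lost on leaving out any of the 7 arrays (adjusted p 0.0581 to 0.148). Evc2 and Tulp3, at 0.16 (95% confidence interval -0.09 to 0.41) and -0.11 (interval -0.37 to 0.15), did not pass, while on uncentred values Evc2 passed (0.50, adjusted p = 0.00195) and the Tulp3 difference turned to 0.23. The other Kif7 probe set gave 0.43 (adjusted p = 0.00824). In tumor Tom+/Pecam1- against muscle Tom- cells the endothelial list was at 0.70 to 1.05 against 1.81 to 2.17 (8 of 8 genes lower), the tenocyte list at 0.82 to 1.67 against 2.57 to 3.58 (4 of 6 lower) and the Schwann list at 0.37 to 0.76 against 1.84 to 1.99 (3 of 5 lower and 1 higher, Mbp and Cdh19 dim in the tumor cells). The proliferation list was at 1.84 to 2.35 against 2.59 to 3.18 (5 of 9 lower), and 3 of 6 mural genes were lower. Their part was not tested. Against muscle Tom+ cells all 7 genes rose, where 58.8% of tested genes were called, 29.5% as higher and 29.2% as lower. Rab34 was 23.9-fold higher there (4.58, adjusted p = 3.47e-11), Evc 3.07-fold, Kif7 2.71-fold and Evc2 2.13-fold, and Gpr161, Tulp3 and Ift88 were higher by 0.72, 0.52 and 0.47. The other Kif7 probe set gave 0.58 (adjusted p = 0.000669). The endothelial and fibroblast lists differ between these last groups as given above. In the tumor cells the muscle progenitor list had 6 of 6 genes higher, the leukocyte list 5 of 6, and the mural and tenocyte lists 4 of 6 each. The proliferation list had 5 of 9 genes higher and 1 lower, and the Schwann list 2 of 5 higher and 2 lower. The part of these lists was not tested.

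The rest of the ciliary machinery was described by 7 lists of 80 genes, of which 67 were tested. In tumor Tom+/Pecam1- against Tom-/Pecam1- cells 21 rose and 2 fell (31.3% and 3.0%, against 13.2% and 11.8% of all tested genes). With the block 8 rose and 1 fell, and the shares of all tested genes do not apply to counts with the block. Their median difference was 0.28, against 0.031 over all tested genes. Of the IFT-B, IFT-A and motor lists 3 genes each rose and 0 fell, and with the block 2, 1 and 1 of these lists' genes rose. The calls of Ift172 (IFT-B), Wdr35 and Ift43 (IFT-A), and Kif3a and Kifap3 (motors) did not hold with the block, at adjusted p of 0.0821 to 0.0977. Among those that held were Ift80 of IFT-B (0.45, adjusted p = 0.01), Ift122 of IFT-A, the particle of return transport (0.51, adjusted p = 0.00739), and Dync2h1, the heavy chain of the return motor (0.59, adjusted p = 0.0035). Of 12 transition zone genes, which form the gate at the cilium base, 5 rose, led by Ahi1 (0.79, adjusted p = 0.000474), Tctn2 (0.68, adjusted p = 0.00171) and Tctn3 (0.47, adjusted p = 0.00212), and with the block these 3 passed while Cc2d2a and Cep290 did not (adjusted p 0.0587 and 0.0914). Of 8 genes of the BBSome, a cargo adaptor complex, 3 rose (Bbs7, Bbs2 and Ttc8), and their adjusted p was 0.0596, 0.07 and 0.112 with the block. Genes that act at the mother centriole, as Rab34 does, split: Ehd3 (0.96, adjusted p = 0.0237) and Ccp110 (0.44, adjusted p = 0.0154) rose, while Myo5a (-0.78, adjusted p = 0.000161) and Ehd1 (-0.48, adjusted p = 0.0169) fell. Of these 4 genes only Myo5a passed with the block.

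The same lists in muscle Tom+ against Tom- cells had 5 genes higher and 22 lower (7.5% and 32.8%, against 19.5% and 19.8% of all tested genes), with a median of -0.20 against 0.0067, and with the block 5 higher and 19 lower. Ift81 (-1.97, adjusted p = 3.78e-06) and Ift57 (-1.14, adjusted p = 8.68e-06) of IFT-B fell, as did Wdr35 of IFT-A (-1.80, adjusted p = 9.71e-08). The motor genes Wdr60 (-1.45, adjusted p = 1.58e-07) and Kif3a (-0.83, adjusted p = 0.000163) fell, and so did the ciliary adenylyl cyclase Adcy5 (-2.46, adjusted p = 6.32e-07). Higher in muscle Tom+ cells were Tmem67 of the transition zone (1.24, adjusted p = 1.88e-05), Ehd1 (1.10, adjusted p = 2.56e-05), Unc119b (0.67, adjusted p = 0.00421), Rab8a (0.53, adjusted p = 0.00333) and Ofd1 (0.38, adjusted p = 0.0212). Ehd1 and Rab8a act in membrane traffic outside the cilium as well.

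In tumor Tom+/Pecam1+ against Tom+/Pecam1- cells 3 of the 67 rose and 34 fell (4.5% and 50.7%, against 20.1% and 24% of all tested genes), with a median of -0.41 against -0.0063, and with the block 2 rose and 32 fell. Wdr35 fell by 2.96 (adjusted p = 1.82e-11), Ift81 by 1.78 (adjusted p = 1.87e-06), Ahi1 by 1.35 (adjusted p = 2.8e-07) and Dync2h1 by 1.31 (adjusted p = 2.81e-07). Ift122 (0.54, adjusted p = 0.00258), Ehd1 (0.88, adjusted p = 5.27e-05) and Rab8a (0.32, adjusted p = 0.0311, and 0.0816 with the block) rose. In the difference of marks between the tissues, 31 of the 67 were higher in tumor and 3 lower (46.3% and 4.5%, against 20.5% and 18.5% of all tested genes), or 27 and 3 with the block, among the first Ift81 (2.42, adjusted p = 1.14e-05), Wdr35 (2.24, adjusted p = 3.04e-07) and Ahi1 (1.79, adjusted p = 2.66e-06). The 3 lower ones were Ehd1 (-1.58, adjusted p = 1.31e-05), Tmem67 (-0.95, adjusted p = 0.00367) and Rab8a (-0.83, adjusted p = 0.000981).

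**Figure D5:**
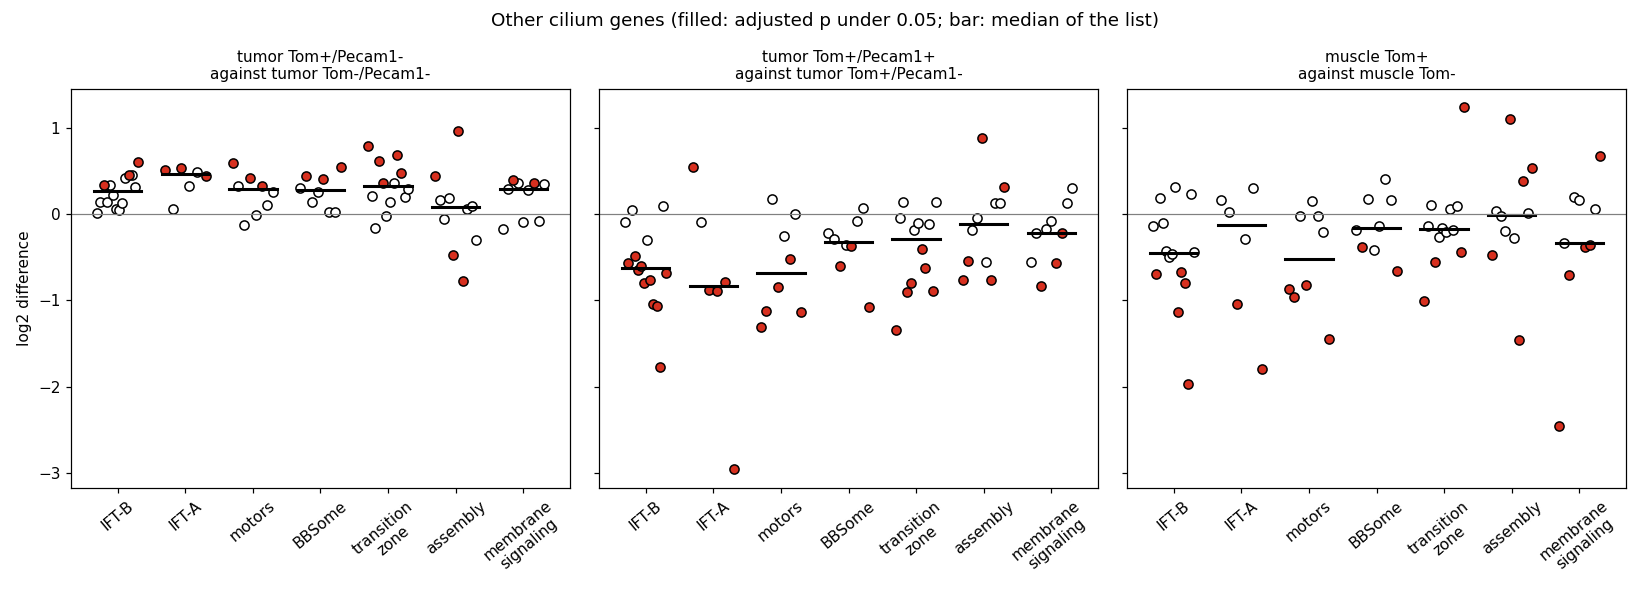
Log2 differences (y axis) of the 67 tested genes of 7 cilium lists (x axis) in 3 comparisons. Points are genes, filled where the adjusted p is under 0.05, and bars are list medians. Of the 67 genes 21 rose and 2 fell in Tom+/Pecam1- against Tom-/Pecam1- tumor cells, 3 rose and 34 fell in Tom+/Pecam1+ against Tom+/Pecam1- tumor cells, and 5 rose and 22 fell in Tom+ against Tom- muscle cells.

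Genes around the cilium gave further context. Of 5 tested RFX factors, Rfx3 alone rose in Tom+/Pecam1- against Tom-/Pecam1- tumor cells (0.40, adjusted p = 0.0123), and Rfx2 (-0.65, adjusted p = 0.000193) and Rfx3 (-0.61, adjusted p = 0.000926) fell in muscle Tom+ cells. Rfx3 (-0.54) and Rfx5 (-0.41) fell in tumor Tom+/Pecam1+ against Tom+/Pecam1- cells. In tumor Tom+/Pecam1- against muscle Tom- cells, where 5 of 7 cilium genes rose, Rfx2 (-0.64, adjusted p = 0.000129) and Rfx3 (-0.34, adjusted p = 0.0263) fell. In tumor Tom-/Pecam1- against muscle Tom- cells Rfx3 (-0.75), Rfx2 (-0.56) and Rfx7 (-0.43) fell and Rfx1 (0.23) rose. Uncentred values of these factors are not given, and the Rfx3 difference of -0.34 is about the size of the 0.34 between the tissues' array medians. Among 7 genes of cilium disassembly the mitotic kinases Nek2 (adjusted p = 0.00181), Aurka (-0.59, adjusted p = 0.00441) and Plk1 (-0.96, adjusted p = 0.00479) fell in muscle Tom+ cells, where 7 of 9 proliferation genes fell too. Of 10 hedgehog core genes 7 rose and 0 fell in Tom+/Pecam1- against Tom-/Pecam1- tumor cells, with or without the block. The Gli target Gli1 rose by 2.00 (adjusted p = 3.04e-05), the receptor Ptch1 by 1.92 (adjusted p = 8.26e-05) and Smo by 0.99 (adjusted p = 5.28e-05). Gli1 was low where Rab34 was low, at -0.03 ± 0.21 in tumor Tom+/Pecam1+ (SD, n = 4) and -0.07 ± 0.16 in muscle Tom+ cells (SD, n = 3), against 3.80 ± 0.53 in tumor Tom+/Pecam1- cells (SD, n = 4). It was at 1.80 ± 0.56 in tumor Tom-/Pecam1- (SD, n = 4) and 0.94 ± 0.17 in muscle Tom- cells (SD, n = 3). Ptch1 did not follow Rab34 in muscle, at 2.88 ± 0.03 in Tom+ and 2.92 ± 0.13 in Tom- cells (SD, n = 3 each). Hhip was at -1.53 ± 0.22 and -0.47 ± 0.42 in these muscle groups. A probe of Smo need not separate the SmoM2 transcript from the endogenous one, and whether it does was not tested.

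Among 14350 tested genes with ordinary symbols, those most like Rab34 over the 18 arrays were Plekhh2 (Pearson r = 0.990), Colec12 (r = 0.987) and Islr (r = 0.987). The genes most like Evc were Pank1 (r = 0.964), Selenoi (r = 0.964) and Uggt2 (r = 0.962), and those most like Evc2 were Pygo1 (r = 0.967), Egfr (r = 0.963) and Bmpr1a (r = 0.962). Kif7 was most like Gaa (r = 0.978), H1f10 (r = 0.975) and Igfbp4 (r = 0.973). The 18 arrays fall into 5 groups that these values share, so they describe a pattern between groups and carry no test.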

How the data were processed

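Expression was measured on 18 arrays, 1 per sorted sample. Per the file headers and the submitters' processing notes, which name RMA and Partek without versions or an order of steps, the deposited values are log2 intensities (1.19 to 13.4) for 41345 probe sets. The array build is not given in the sources used here. Only the 23521 probe sets with 1 gene symbol were used, not the 1814 with several or the 16010 without any. Each array was centred on its median. A gene was tested where at least 3 arrays exceeded their own 40th percentile. R 4.3.3 and limma 3.58.1 were used to fit 5 group means to all 18 arrays (residual degrees of freedom 13, prior 3.9), with two-sided moderated tests, Benjamini-Hochberg adjustment over 16011 genes and a threshold of 0.05. The script was tested on simulated data. Figures were drawn with matplotlib 3.10.9. Precision is limited by the number of arrays.

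In the deposited tumor values each repeat number has the same average over its 3 sorted populations (within 7.67e-05 at all probe sets), against a median range of 0.248 in muscle. Same-numbered muscle arrays deviated together from their group means (r = 0.27 to 0.31 across genes, others -0.19 to -0.09), so the numbers pair them. In tumor the equal means make that check void (r = -0.72 to -0.17). The block of repeat numbers within each tissue left 8 residual degrees of freedom.

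The genes, gene lists and tests were chosen with earlier results of these data known. The text names all 8 cilium genes. Genes of the other lists were drawn from the 3 with the smallest adjusted p, or from all called where 5 or fewer passed. Not every such gene is named. In tumor Tom+/Pecam1- against Tom-/Pecam1- cells, Ttc26 of IFT-B (0.60, adjusted p = 0.00668) rose too. So did Prkar1a (0.36, adjusted p = 0.00392) and Arl3 (0.39, adjusted p = 0.0146) of the membrane signaling list. The text also names genes of like pattern for members whose group means span at least 1 log2 unit. The other Kif7 probe set was added after the data were seen. RefSeq promoter windows (GRCm38.p6) came from a table of 32851 windows of 27025 genes. Alternatives were other filters, uncentred or quantile-normalized values, the mean of all probe sets, other variance models, array weights, only the groups compared, the repeat block, and left-out arrays or repeats.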

Additional observations from a re-analysis of the deposited data

Results flagged for a closer look

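The difference between Tom+ and Tom- cells was not the same in Pecam1- tumor cells and in muscle for any of the 7 measured genes, by a test of the difference itself in limma's fit with adjustment over 16011 genes. As signed values, the tumor difference exceeded the muscle difference by 3.64 log2 units for Rab34, 1.31 for Evc, 1.15 for Evc2 and 1.05 for Tulp3. It exceeded it by 0.66 for Gpr161, 0.65 for Kif7 and 0.62 for Ift88. The calls of Gpr161 and Ift88 did not hold without muscle repeats 1 and 2, which leaves 1 array in each muscle group. The marks compared differ in cell content between the tissues, since the endothelial list averaged 0.70 to 1.05 in tumor Tom+/Pecam1- and 5.45 to 5.63 in muscle Tom+ arrays.

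Evc2 in tumor Tom+/Pecam1- cells had 1 array far from the others, repeat 1 at 2.13, with a gap to its nearest neighbour of 0.844 of the group's range. Chance alone marks about 1 in 20 groups in this way.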

How the results depend on the processing

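Of the alternative values of the 7 genes, 969 kept their direction and their side of the threshold, 39 lost a call, 23 gained one and 12 changed sign. None of the 12 was called in the original fit. On leaving out single arrays Gpr161 ranged from -0.17 to 0.06 in muscle (0.04 without the Tom+ repeat 3), and from -0.07 to 0.13 in tumor Tom+/Pecam1+ against muscle Tom+ cells (-0.04 without the tumor repeat 3). In those Tom+ cells Tulp3 ranged from -0.05 to 0.11 (-0.02 without the muscle repeat 1 and -0.0012 without the tumor repeat 2). In tumor Tom-/Pecam1- against muscle Tom- cells, single arrays left out gave -0.11 to 0.01 for Evc2 and -0.05 to 0.18 for Gpr161, and uncentred values gave 0.18 for Ift88 and 0.28 for Evc2. Uncentred values gave 0.23 for Tulp3 in tumor Tom+/Pecam1- against muscle Tom- cells.

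Leaving out muscle repeats 1 and 2 in both muscle groups leaves 1 array in each, assumed to vary like the other groups. It left 3621 genes and 2 of the cilium genes called in muscle (6303 and 5 otherwise), 2769 genes in tumor Tom+/Pecam1+ against muscle Tom+ (5482 otherwise), 1 cilium gene in tumor Tom-/Pecam1- against muscle Tom- (3 otherwise), 4960 genes in tumor Tom+/Pecam1- against muscle Tom- (7545 otherwise) and 3950 in the difference of marks (6247 otherwise). In tumor Tom+/Pecam1+ against muscle Tom+ cells, uncentred values called 8444 genes and all 7 cilium genes (5482 and 1 otherwise). There 2 cilium genes were called with array weights, with the random block and without tumor repeat 4. The share of all tested genes called in these 3 fits is not given, so these counts have no background beside them. The replicate block left 3 cilium genes in tumor Tom+/Pecam1- against Tom-/Pecam1-, and changed the Kif7 call in muscle. Apart from those and Evc in Tom+/Pecam1+ against muscle Tom+ it changed no other call of the 7 genes. On leaving out single arrays the cilium genes called ranged from 3 to 6 in tumor Tom+/Pecam1- against Tom-/Pecam1-, where 2805 to 3935 of all tested genes were called. They ranged from 1 to 3 in tumor Tom+/Pecam1+ against muscle Tom+, where 4430 to 5150 of all tested genes were called. The causes of these changes were not tested, and fits with arrays left out also rest on fewer arrays. Rab34 in the endothelial marker-rich groups lies near the dim end of the arrays, which limits its fold changes.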
